A study of Mus musculus with 17 samples.

Results

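The genes described here encode nuclear subunits of the respiratory chain complexes I, III and IV and of ATP synthase, complex V. A gene was taken when its only symbol in the array's annotation began with Nduf, Uqcr, Cox4, Cox5, Cox6, Cox7, Cox8 or Atp5, and each gene was read on its probe set with the highest mean. This gave 86 of the 18193 genes with such a probe set: 36 of complex I, 8 of complex III, 17 of complex IV, 17 of complex V, and the 8 complex I assembly factors Ndufaf1 to Ndufaf8. The assembly factors share the Nduf prefix but are not part of the finished enzyme, and Ndufa4 and Ndufa4l2 are counted under complex I by name although their proteins bind complex IV. RNA of the colon was measured on Affymetrix mouse arrays in CD4cre mice, which are PPAR γ flfl with Cre, and in WT mice. WT is the study's name for its Cre-negative mice, and both genotypes were on a C57BL/6J background. Cre is driven by the CD4 promoter, so PPAR γ is lost in CD8+ as well as CD4+ T cells, while the other cells of the colon are not targeted. Mice were killed before DSS (day 0) or after 2 or 7 days of 2.5% DSS in drinking water, an agent that injures the colonic epithelium. There were 3 samples each of CD4cre mice on days 0, 2 and 7 and of WT mice on days 0 and 2, and 2 samples of WT mice on day 7. No source used here says if a sample came from a single mouse or a pool, so the p-values measure the spread between these samples, which may be partly technical.

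Complex I passes electrons from NADH to ubiquinone, complex III passes them on to cytochrome c and complex IV to oxygen. The protons that these complexes move across the inner mitochondrial membrane drive complex V, which makes ATP. Most subunits are encoded in the nucleus and the rest in the mitochondrial genome, and complex I needs a set of assembly factors that do not stay in it. In the colon the absorptive epithelium is rich in mitochondria and oxidizes butyrate. All values are log2 probe set values, a difference of 1 being a doubling, and levels are not compared between genes because probes differ in brightness.

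Genes of the respiratory chain often carry short motifs for a few shared transcription factors, so the promoters are shown before the values. RefSeq's promoter table for build GRCm38.p6 held 71 of the 86 genes, with 250 bases before the start. On either strand, CGCATGCG, the core of the NRF1 motif, was in 6 of the 71 (8.45%), against 1.58% of 27025 promoters in the table. CCGGAAG, an ETS motif bound by GABPA, was in 12 (16.9%, against 7.05%), AAGGTCA, the motif of ERR receptors, in 5 (7.04%, against 4.05%) and CCAAT, the NF-Y box, in 30 (42.3%, against 34.5%). AAGATGG, part of a longer form of the YY1 motif, was in 0 of the 71, against 4.53% of all. Other forms of the YY1 motif and bases after the start were not searched, so this count does not show that YY1 sites are absent. The 6 promoters with the NRF1 core are shown as 60 bases around it, on the strand of the gene, with any of these motifs in capitals on the strand where its letters or their complement stand:
Ndufa8, complex I (chr2:36049339-36049398, minus strand): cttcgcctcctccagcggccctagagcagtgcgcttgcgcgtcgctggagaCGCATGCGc
Cox6a1, complex IV (chr5:115349086-115349145, minus strand): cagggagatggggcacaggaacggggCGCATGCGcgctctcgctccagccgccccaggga
Atp5g2, complex V (chr15:102671055-102671114, minus strand): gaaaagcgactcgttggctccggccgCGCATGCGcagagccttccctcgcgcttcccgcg
Atp5k, complex V (chr5:108434415-108434474, minus strand): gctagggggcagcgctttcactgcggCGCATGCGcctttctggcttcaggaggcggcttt
Atp5l, complex V (chr9:44920933-44920992, minus strand): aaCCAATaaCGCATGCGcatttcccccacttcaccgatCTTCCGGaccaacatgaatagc
Ndufaf4, assembly factor (chr4:24897945-24898004, plus strand): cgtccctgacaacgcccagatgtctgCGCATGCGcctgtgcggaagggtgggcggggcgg
The Atp5l stretch holds all of the NF-Y, NRF1 and ETS letters, the last on the other strand. A match is a run of letters and not a measured binding site.

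The last 150 bases before the start are shown for the 5 genes that the test below called, to set beside their values, with the same motifs in capitals:
Ndufaf7 (chr17:78936985-78937134, plus strand): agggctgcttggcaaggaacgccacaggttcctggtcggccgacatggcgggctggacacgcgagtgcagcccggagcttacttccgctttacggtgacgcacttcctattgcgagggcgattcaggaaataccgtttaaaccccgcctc
Ndufaf2 (chr13:108158626-108158775, minus strand): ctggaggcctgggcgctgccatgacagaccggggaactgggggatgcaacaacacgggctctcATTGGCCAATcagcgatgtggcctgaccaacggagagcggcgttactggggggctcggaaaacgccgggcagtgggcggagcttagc
Ndufaf1 (chr2:119662835-119662984, minus strand): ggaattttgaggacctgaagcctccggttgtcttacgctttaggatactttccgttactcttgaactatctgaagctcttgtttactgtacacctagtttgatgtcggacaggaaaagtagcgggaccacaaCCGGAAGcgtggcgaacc
Ndufaf5 (chr2:140170496-140170645, plus strand): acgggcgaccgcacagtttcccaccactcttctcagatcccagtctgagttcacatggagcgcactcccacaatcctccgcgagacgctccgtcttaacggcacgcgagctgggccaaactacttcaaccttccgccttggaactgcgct
Cox7a1 (chr7:30184021-30184170, plus strand): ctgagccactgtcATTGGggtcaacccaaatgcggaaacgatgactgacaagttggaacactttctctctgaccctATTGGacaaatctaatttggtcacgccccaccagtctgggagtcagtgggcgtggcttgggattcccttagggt
The capitals are NF-Y letters on both strands in Ndufaf2 and on the other strand in Cox7a1, and ETS letters in Ndufaf1. The stretches of Ndufaf7 and Ndufaf5 hold none of the 5 motifs in the letters searched.

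Of the 86 genes, 79 had a mean above the background level of 3.25, which is the level that 95% of 47 probe sets of genes from unsampled tissues stayed under. The other 7 were Ndufb4, a complex I subunit, and Ndufa4l2, Cox4i2, Cox6a2, Cox7b2, Cox8b and Cox8c, which are isoforms known mainly from lung, muscle, testis or hypoxic cells. Above background were 34 genes of complex I, 8 of complex III, 12 of complex IV, 17 of complex V and all 8 assembly factors. Among isoform pairs, Cox4i1, Cox6a1, Cox6b1, Cox7a2 and Cox8a of most tissues were above background, and so were Cox6b2, known from testis, and Cox7a1, known from muscle. Of the 86 probe sets, 14 have names ending in _s_at and 6 in _x_at, which Affymetrix uses where probes match several transcripts or genes, so signal from close relatives cannot be told apart there. The targeted gene, Pparg, was at 9.82, 9.70 and 10.62 in CD4cre mice on day 0, against 10.74, 9.97 and 11.21 in WT mice, so the groups overlapped. In whole colon this value does not check the deletion, since the mean of 3 T cell genes was at most 3.18 in any sample and so under the background level.

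On day 7 of DSS, 5 of the 86 genes were called lower in CD4cre mice than on day 0 and 0 were called higher, by limma at an adjusted p under 0.05. Across all 18193 genes, 4.33% were called lower and 4.35% higher, while across the 11843 genes above background 6.57% were called lower. The 5 genes were the assembly factors Ndufaf7, Ndufaf2, Ndufaf1 and Ndufaf5 and the complex IV isoform Cox7a1, so 1 of 78 subunits was called. At an unadjusted p under 0.05, 39 of the 79 genes above background were lower and 0 higher, against 18.7% of all genes above background that were lower. The fold change was below 0 in 76 of the 86 genes and in 72 of the 79 above background, with a median of -0.31 (80.5% of the day 0 level), against a median of -0.04 over all genes above background. In 35 of the 86 genes, 34 of them above background, every CD4cre sample of day 7 was below every CD4cre sample of day 0, against 19.1% of all genes above background. In bulk RNA, fewer cells that express these genes and less of their RNA per cell cannot be told apart.

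**Figure D1:**
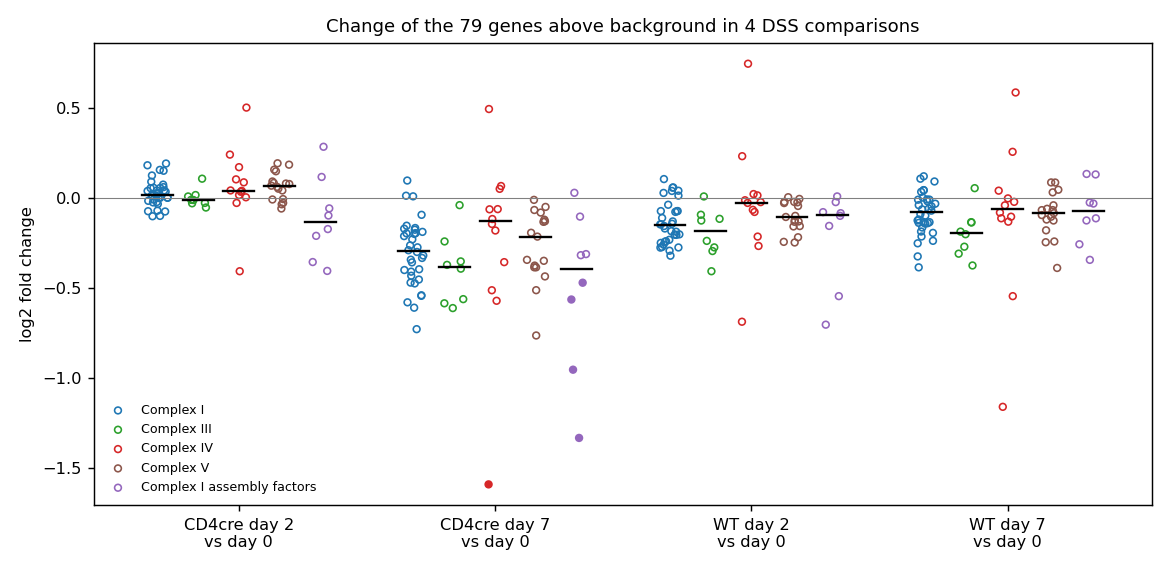
Log2 fold change of each of the 79 genes above background (points) in CD4cre and WT mice on days 2 and 7 of DSS, each against day 0 of the same genotype, with the median of each complex as a line and the called genes filled. The 5 filled points lie in CD4cre mice on day 7, where complex III has a median of -0.38 and complex IV of -0.13.

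The shift was carried unevenly by the samples. CD4cre day 7 replicate 2 was below all 3 CD4cre day 0 samples in 76 of the 79 genes, with a median difference from the day 0 mean of -0.68. Replicate 1 was below them in 52 genes with a median of -0.14, and replicate 3 in 38 genes with a median of -0.05, while it was above them in 23. The root mean square SD of the 79 genes was 0.40 between the CD4cre samples of day 7 and 0.09 to 0.21 in the other 5 groups. Without replicate 2 the median over the 79 genes was -0.12, and 4 of the 5 genes were still called, Ndufaf5 being the exception. Without replicate 3 the median was -0.43 and 29 genes were called, all lower. Over all 45037 probe sets, in either direction, 2385 were called without replicate 2 and 5240 without replicate 3. The main fit called 1575 higher and 1461 lower. In a fit to the CD4cre samples of days 0 and 7 alone, which leaves fewer samples to estimate the spread, 0 genes were called. When each array was first centred on its median, 35 genes were called, all lower, among them Cox7b2, Ndufa4l2 and Ndufb4 from below background. Over all probe sets, in either direction, these fits called 28 and 18002. Calls after centring were thus frequent across the whole array, and the 35 do not by themselves set these genes apart.

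**Figure D2:**
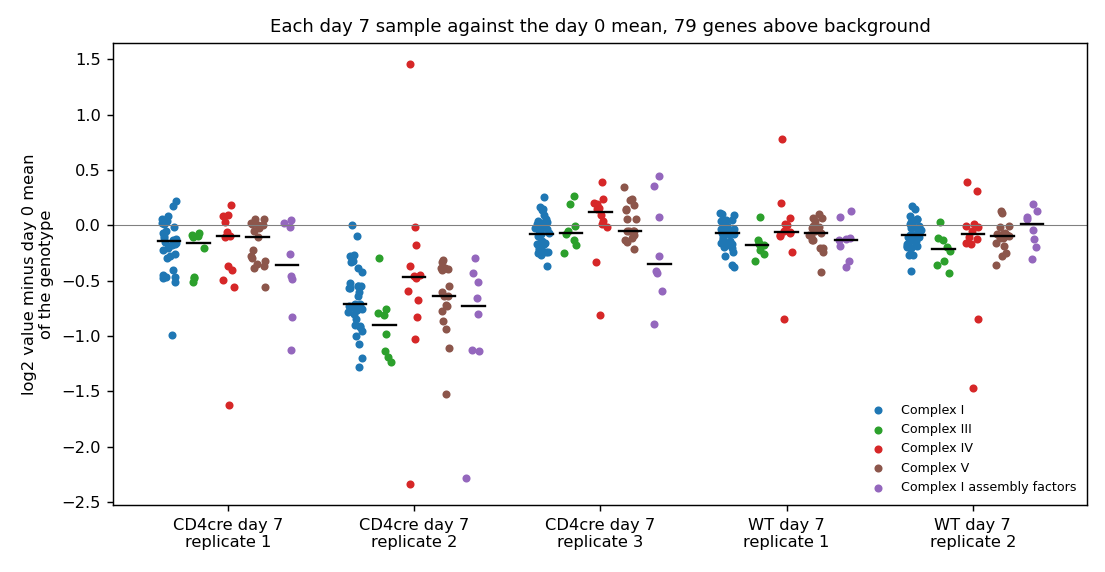
Log2 value of each of the 79 genes above background in each day 7 sample minus the day 0 mean of its genotype, by complex, with medians as lines. CD4cre replicate 2 has a median of -0.68 over the 79 genes, against -0.14 and -0.05 in CD4cre replicates 1 and 3 and -0.08 and -0.10 in the WT samples.

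Replicate 2 also differed in its cell type markers. Its mean over 8 genes of monocytes and macrophages was 10.04, against 8.74 and 8.65 in replicates 1 and 3 and 6.93 to 7.08 in CD4cre mice on day 0, and all 8 were called higher on day 7. Its mean over 7 fibroblast genes was 12.56, against 11.54 and 11.50 in the other replicates, and over 12 epithelial genes 12.06, against 12.73 and 12.60. Its mean over 6 neutrophil genes was 6.07, against 5.01 and 4.82 in the other replicates and 2.58 to 2.60 in CD4cre mice on day 0, with 2 of the 6 called higher. Over 7 genes of absorptive colonocytes it did not stand apart, with 12.31, 12.20 and 12.22 in replicates 1 to 3 and 11.79 to 12.90 on day 0. The epithelial list was at 12.47 to 12.57 in CD4cre mice on day 0, so replicates 1 and 3 were above that range and replicate 2 below it. Over the 3 samples 0 of its 12 genes were called, with a median fold change of -0.02. A score from Hox genes, whose expression differs along the colon, stood at 0.14 for replicate 2, at -1.86 for replicate 1 and at -2.0 for replicate 3. The part of infiltrating cells, epithelial share and colon position in the lower values was not tested, beyond a fit with the Hox score as a covariate. That fit called 19 of the 86 genes, all lower, and 4365 of all probe sets in either direction. Its median over the 79 genes above background was -0.35. In 3 samples of earlier days (the CD4cre samples numbered 2 on day 0 and 1 on day 2, and the WT sample numbered 2 on day 2) pancreatic enzyme transcripts had a median of 13.3, 12.8 and 12.4, against 2.31 to 2.69 in the other samples, and without these 3 samples 2 of the 86 genes, Ndufaf2 and Ndufaf7, were called in CD4cre mice on day 7.

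Complex I averaged 12.06, 11.58 and 12.16 over its 34 genes above background in the CD4cre samples of day 7, against 12.29, 12.22 and 12.21 on day 0. All 3 day 7 samples were below the 3 of day 0, replicate 2 by far the most. The median fold change of its genes was -0.30 (81.5% of day 0), 31 of 34 genes were below 0, and 0 were called. The 6 core subunits measured, most of which hold the flavin or iron-sulfur clusters that carry the electrons, had fold changes of -0.61 to -0.33 with a median of -0.43. The 12 accessory subunits of the A series had a median of -0.24. The 13 of the B and C series, which here include Ndufb4 from below background, had a median of -0.23.

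Ndufs8, a core subunit with iron-sulfur clusters, was at 12.67, 11.94 and 12.98 in CD4cre mice on day 7, against 13.24, 13.11 and 13.06 on day 0. The groups did not overlap, and replicate 2 was the lowest. Its fold change was -0.61 (SE 0.21, adjusted p = 0.11, n = 3 each). Ndufs1, the largest subunit of the complex and a carrier of iron-sulfur clusters, was at 10.43, 9.89 and 10.72, against 10.90, 10.84 and 10.93 on day 0, a fold change of -0.54 (SE 0.17, adjusted p = 0.073). Ndufa4, first described in complex I and found with complex IV, was at 10.51, 10.55 and 11.25, against 11.49, 11.64 and 11.37. Here replicates 1 and 2 were both low, and the fold change of -0.73 (SE 0.21, adjusted p = 0.065) was the lowest of the 34. Ndufa2, an accessory subunit, was on the other side of 0 with 12.75, 12.43 and 12.69, against 12.56, 12.55 and 12.47, and its groups overlapped (fold change 0.10, SE 0.10, adjusted p = 0.54). Ndufa1, the complex I gene with the highest mean, had a fold change of -0.20 (SE 0.09, adjusted p = 0.20).

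Complex III averaged 12.50, 11.85 and 12.72 over its 8 genes in the CD4cre samples of day 7, against 12.79, 12.72 and 12.75 on day 0. All 3 day 7 samples were below day 0, replicate 3 by less than the rounding of these values. The median fold change was -0.38 (76.7% of day 0), all 8 genes were below 0, and 0 were called. Uqcrfs1, the Rieske iron-sulfur protein that takes electrons from ubiquinol, was at 12.07, 11.30 and 12.40, against 12.57, 12.50 and 12.55. All day 7 samples were below day 0, and the fold change was -0.61 (SE 0.21, adjusted p = 0.11). Uqcrb, the gene of this complex with the highest mean, was at 14.71, 14.50 and 15.06, against 14.83, 14.78 and 14.78, so its groups overlapped (fold change -0.04, SE 0.11, adjusted p = 0.83). The other 6 genes lay between these, from -0.59 for Uqcr11, a small subunit, to -0.24 for Uqcrq, another small subunit.

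Complex IV averaged 11.88, 11.66 and 12.18 over its 12 genes above background in the CD4cre samples of day 7, against 12.20, 12.15 and 12.12 on day 0, so the groups overlapped. The median fold change was -0.13 (91.3% of day 0) with 9 of 12 genes below 0, and it was 0.02 without replicate 2. Of these 12, Cox7a1, the muscle isoform of subunit 7a, was called. It was at 7.98, 7.26 and 8.79 in CD4cre mice on day 7, against 9.67, 9.90 and 9.24 on day 0, and every day 7 sample was below every day 0 sample. The fold change was -1.59 (SE 0.33, adjusted p = 0.016, 33.1% of day 0). In WT mice it was at 9.24 and 8.62 on day 7, against 9.74, 10.03 and 10.52 on day 0, also without overlap, with a fold change of -1.16 (SE 0.37, adjusted p = 0.48). The difference between these 2 effects was -0.43 (SE 0.50, adjusted p = 0.94). A list of 6 smooth muscle genes averaged 12.41, 13.18 and 12.75 in CD4cre mice on day 7, against 13.50, 13.59 and 12.74 on day 0, and 12.75 and 12.61 in WT mice on day 7, against 12.90, 13.29 and 12.79 on day 0. Its 6 genes were all below 0 in CD4cre mice with a median of -0.56 and 0 called, and the part of muscle in the Cox7a1 values was not tested.

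Cox7a2, the widespread isoform of subunit 7a, was at 14.01, 13.61 and 14.16 in CD4cre mice on day 7, against 14.07, 14.06 and 14.08 on day 0 (fold change -0.14, SE 0.13, adjusted p = 0.47). Cox7a2l, its relative that binds complexes III and IV into supercomplexes, had a fold change of -0.36 (SE 0.14, adjusted p = 0.16). Of the other subunits, Cox4i1, the isoform of most tissues, had a fold change of -0.06, Cox6b1, which joins the dimer, also -0.06, Cox6a1, the complex IV gene with the highest mean, 0.05, and Cox8a, a small membrane subunit, -0.51 (adjusted p = 0.13). Cox6b2 was at 5.44, 7.27 and 6.20 on day 7, against 5.78, 5.63 and 6.02 on day 0, so it was high in replicate 2, where most other genes were low (fold change 0.49, SE 0.38, adjusted p = 0.40). Cox7c, a subunit present in all tissues, was read here on a dim probe set and had a fold change of -0.57 (SE 0.26, adjusted p = 0.21).

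Complex V averaged 13.06, 12.56 and 13.25 over its 17 genes in the CD4cre samples of day 7, against 13.25, 13.22 and 13.20 on day 0. Replicate 3 was close to the highest day 0 sample. The median fold change was -0.21 (86.2% of day 0), all 17 genes were below 0, and 0 were called. The 5 genes of the catalytic F1 part had a median of -0.38, the 3 of the c ring, which turns as protons pass, -0.35, and the 9 of the stalk and membrane parts -0.13. Atp5g1, one of the 3 genes for the c subunit, was at 11.67, 10.69 and 12.01, against 12.33, 12.21 and 12.13. The groups did not overlap and the fold change was -0.76 (SE 0.25, adjusted p = 0.097). Atp5g3, another gene for the same protein, was at 14.55, 14.15 and 14.69, against 14.58, 14.55 and 14.50, with overlap (fold change -0.08, SE 0.11, adjusted p = 0.63), and Atp5g2 had a fold change of -0.35 (SE 0.14, adjusted p = 0.17). Atp5b, the catalytic beta subunit, was at 13.47, 12.90 and 13.62, against 13.76, 13.76 and 13.79 (fold change -0.44, SE 0.13, adjusted p = 0.078). Atp5h, a stalk subunit and the complex V gene with the highest mean, had a fold change of -0.21 (SE 0.07, adjusted p = 0.099).

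**Figure D3:**
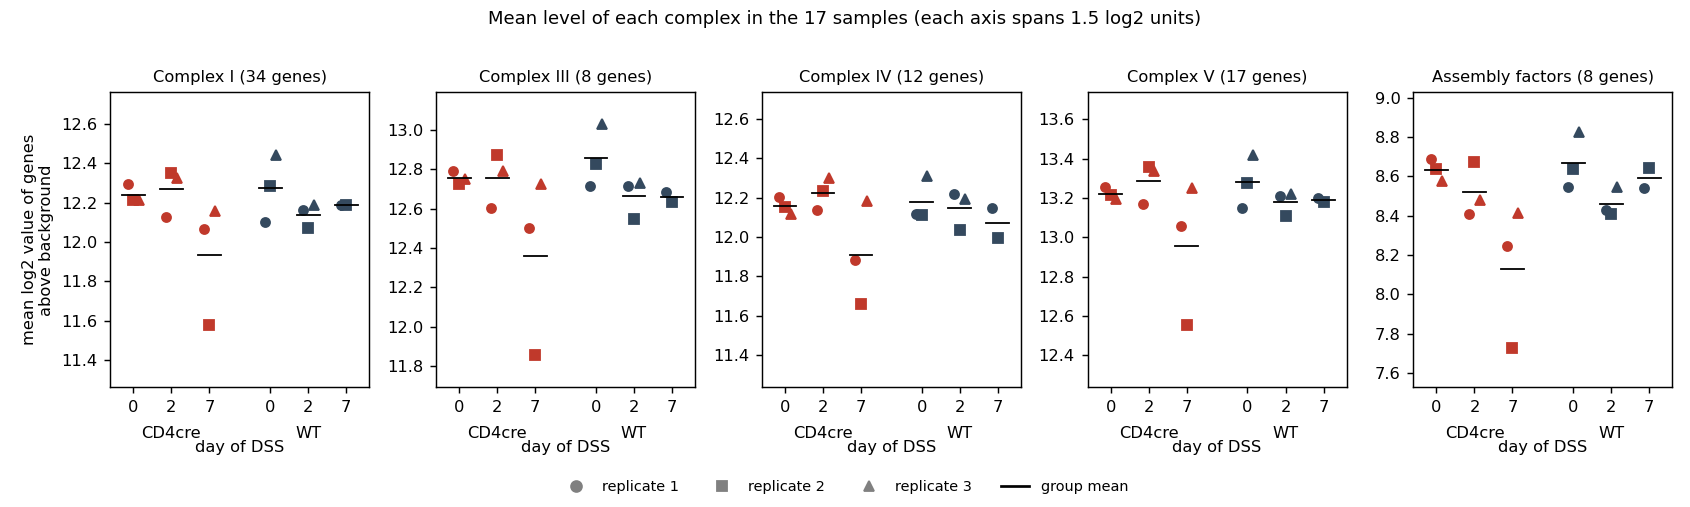
Mean log2 value of the genes of each complex above background in each of the 17 samples (points, shaped by replicate) by day of DSS, CD4cre left and WT right, with group means as lines. The CD4cre day 7 samples of complex I are at 12.06, 11.58 and 12.16, below the day 0 samples at 12.21 to 12.29.

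The assembly factors of complex I held 4 of the 5 calls. Ndufaf7, a methyltransferase that modifies a core subunit during assembly, was at 7.81, 7.80 and 8.34 in CD4cre mice on day 7, against 9.03, 8.90 and 8.89 on day 0. All 3 day 7 samples were far below day 0, replicate 1 as much as replicate 2. The fold change was -0.96 (SE 0.12, adjusted p = 0.0015, 51.6% of day 0). Ndufaf2, which binds a late intermediate of the complex, was at 8.75, 8.71 and 8.82, against 9.23, 9.31 and 9.15, with little spread in either group (fold change -0.47, SE 0.08, adjusted p = 0.0048). Ndufaf1, which works on the membrane arm, was at 7.92, 7.57 and 7.94, against 8.25, 8.43 and 8.45 (fold change -0.56, SE 0.12, adjusted p = 0.017). Ndufaf5, which hydroxylates a core subunit, was at 6.88, 5.43 and 6.82, against 7.99, 7.70 and 7.44, again without overlap (fold change -1.33, SE 0.34, adjusted p = 0.036). The other 4 factors had fold changes of -0.32 for Ndufaf4, -0.31 for Ndufaf6, -0.10 for Ndufaf3 and 0.03 for Ndufaf8, none of them called.

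**Figure D4:**
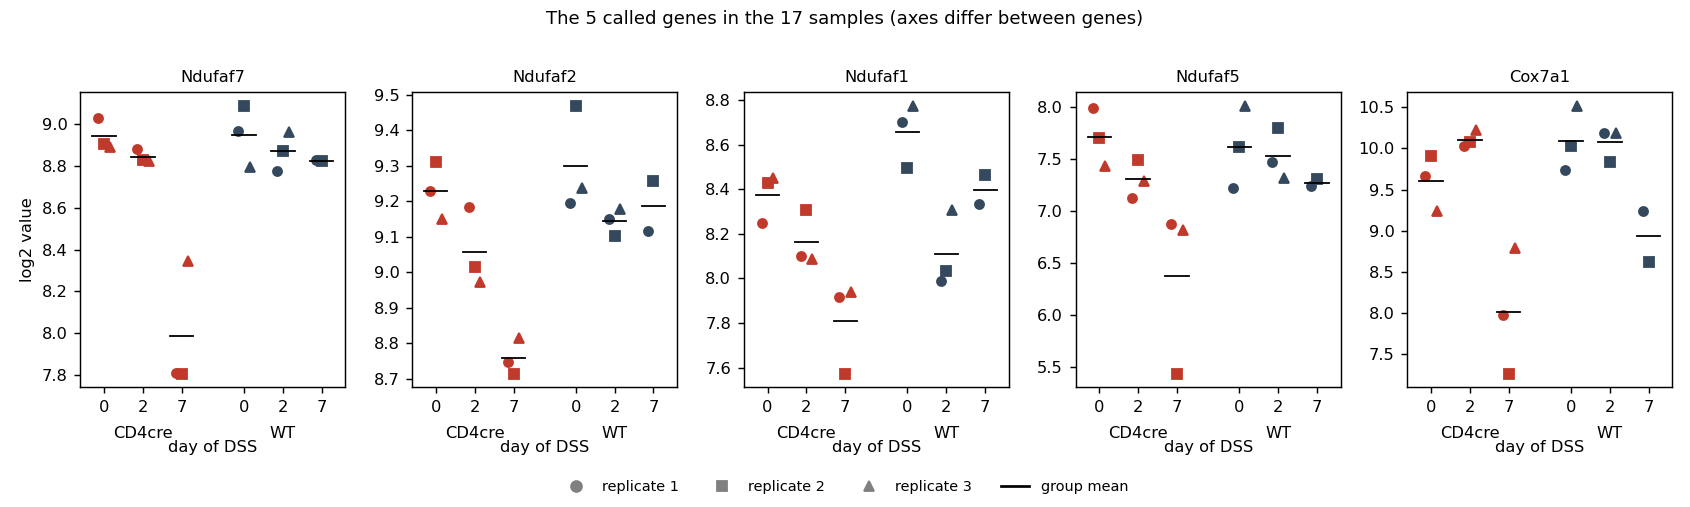
Log2 value of the 5 genes called in CD4cre mice on day 7 in each of the 17 samples (points, shaped by replicate), with group means as lines, and axes that differ between genes. In each gene the 3 CD4cre samples of day 7 lie below the 3 of day 0, and in Cox7a1 and Ndufaf1 the 2 WT samples of day 7 lie below the 3 WT samples of day 0.

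On day 7, CD4cre mice were set against WT mice to compare the genotypes directly. In this comparison 2 of the 86 genes were called lower and 0 higher, against 1.64% of all genes above background that were called lower. Ndufaf7 was at 7.81, 7.80 and 8.34 in CD4cre samples, against 8.83 and 8.82 in WT samples (fold change -0.84, SE 0.14, adjusted p = 0.018, n = 3 and 2). Ndufaf2 was at 8.75, 8.71 and 8.82, against 9.12 and 9.26 (fold change -0.43, SE 0.08, adjusted p = 0.034). Neither gene's groups overlapped. At an unadjusted p under 0.05, 13 of the 79 genes above background were lower, close to the 16% of all genes above background. In 18 of the 79 all CD4cre samples were below both WT samples, against 23.4% of all genes above background. The median fold changes were -0.25 for complex I, -0.32 for complex III, -0.11 for complex IV, -0.19 for complex V and -0.49 for the assembly factors, against -0.05 over all genes above background.

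In WT mice, day 7 was set against day 0, and 0 of the 86 genes were called, against 0.104% of all genes. At an unadjusted p under 0.05 there were 3 of the 79, against 10.8%. The spread of each gene was shared with the CD4cre day 7 samples, where these genes varied most (root mean square SD 0.40). It may thus be too wide in this comparison, so a low count here does not show less change than in other genes. In 22 of the 79 both WT samples of day 7 were below the 3 of day 0, against 14.4%. The medians were -0.08 for complex I, -0.19 for complex III, -0.06 for complex IV, -0.08 for complex V and -0.07 for the assembly factors, against 0.04 over all genes above background. With arrays weighted by quality the medians of complexes I, IV and V were above 0 in this comparison. The weights were 16.6 for WT day 0 replicate 1, against 0.66 and 0.32 for replicates 2 and 3. That 1 array thus held most of the weight of its group. Without WT day 0 replicate 3 that of complex IV was 0.033 and those of complexes I and V were -0.0079 and -0.010, while without WT day 0 replicate 1 they were -0.12 for complex IV, -0.18 for complex I and -0.13 for complex V. Whether the genotypes differed in their day 7 effect was tested as the difference of the effects, CD4cre minus WT. It was called in 0 of the 86 genes, against 0.159% of all genes, and at an unadjusted p under 0.05 it stood out in 7 of the 79, against 18.5%. Its lowest adjusted p was 0.11, for Ndufaf7 (difference -0.83, SE 0.18).

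Day 2 showed no call in either genotype. The spread shared with the CD4cre day 7 samples may make the counts on days 0 and 2 too low as well. In CD4cre mice 0 of the 86 genes were called on day 2, against 0.0165% of all genes, and 1 of the 79 passed an unadjusted p under 0.05, against 11.1%. The medians were 0.02 for complex I, -0.01 for complex III, 0.04 for complex IV, 0.07 for complex V and -0.14 for the assembly factors, of which 6 of 8 were below 0. In WT mice 0 were called on day 2, against 0.731%, and 6 of the 79 passed the unadjusted p, against 18.6%, with medians of -0.15, -0.18, -0.03 and -0.11 for complexes I, III, IV and V and -0.09 for the assembly factors. The medians of complexes I, IV and V were above 0 with the same array weights, and those of all 4 complexes with the Hox score as a covariate. Without WT day 2 replicate 2 that of complex IV was 0.049. Between the genotypes, 0 were called on day 0 (against 0.011% of all genes) and on day 2 (against 0.0275%), and 3 and 0 of the 79 passed the unadjusted p (against 8% and 9.98%). The difference of the day 2 effects was called in 0 of the 86 (against 0% of all genes), and 0 of the 79 passed the unadjusted p (against 6.93%). On day 2 the sample with pancreatic transcripts was the lowest of its group in all 4 complexes in both genotypes, for example at 12.12 for complex I in CD4cre mice, against 12.35 and 12.33 in the others. Its part in the day 2 values was not tested.

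The fold change differed with the signal of the probe set. Among the 71 subunits above background, the 11 with a mean of at least 14 had a median fold change of -0.08 in CD4cre mice on day 7, the 16 between 13 and 14 of -0.20, the 21 between 12 and 13 of -0.34 and the 23 below 12 of -0.36. For 43 genes a second probe set was above background, and the dimmest had a lower fold change than the brightest in 25 of them. The medians of these genes were -0.23 on the brightest and -0.27 on the dimmest probe set, and the sign was the same in 34. Over all 170 probe sets of the 86 genes, 12 were called, all lower, against 1461 of all 45037 probe sets called lower. Of the 12, 7 were not the brightest of their gene. These 7 belong to Atp5o, Ndufa7, Ndufaf4, Ndufs4 and Uqcr10, which were not called on the brightest.

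**Figure D5:**
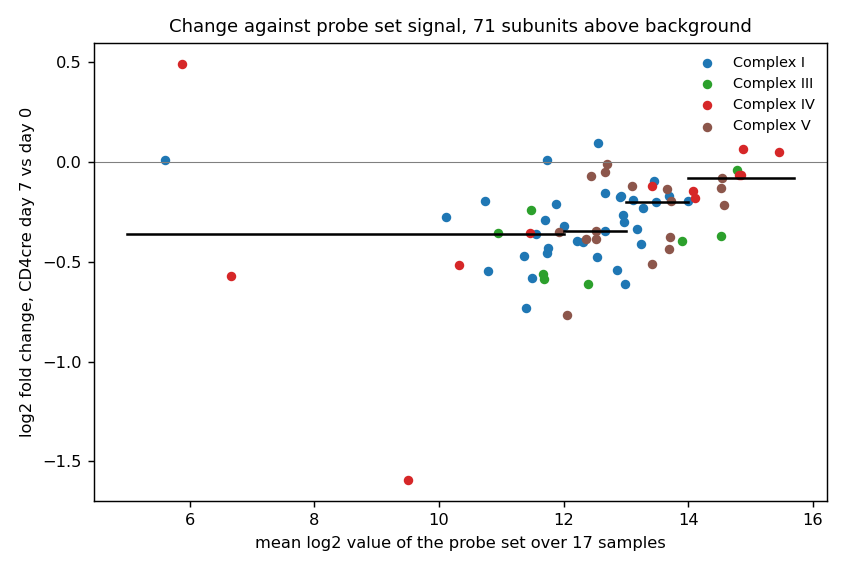
Log2 fold change in CD4cre mice on day 7 against day 0 (vertical) and mean log2 value of the probe set over the 17 samples (horizontal) for the 71 subunits above background, coloured by complex, with the median of each signal range as a line. The median is -0.36 below a mean of 12 and -0.08 from 14 upward.

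Other genes of the pathway were read from lists by role. Of 37 further assembly factors, 8 were called lower in CD4cre mice on day 7 and 0 higher, with a median of -0.37, against 6.57% called lower over all genes above background. They were Nubpl (-0.85) and Tmem126b (-0.89) of complex I, Uqcc1 (-1.12) and Uqcc3 (-0.57) of complex III, Cox18 (-0.50) and Coa6 (-0.70) of complex IV, and Atpaf1 (-0.47) and Tmem70 (-0.59) of complex V, all as log2 fold changes. Uqcc3, Atpaf1 and Oxa1l, the insertase of the inner membrane, were also called lower in CD4cre than in WT mice on day 7 (-0.66, -0.46 and -0.78).

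Uqcc3 was at 7.33, 7.25 and 7.31 in CD4cre mice on day 7, against 7.84, 7.95 and 7.82 on day 0. In WT mice it was at 7.98 and 7.93 on day 7, against 7.47, 7.66 and 7.33 on day 0. The day 7 samples lay below day 0 in CD4cre mice and above it in WT mice without overlap, although the WT effect was not called (fold change 0.47, adjusted p = 0.15), and the difference of the effects was called (-1.04, SE 0.13, adjusted p = 0.014).

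Among the enzymes that feed electrons to ubiquinone or cytochrome c, 1 of 13 was called lower and 0 higher, a share close to the 6.57% called lower over all genes above background, and the median was -0.28. It was Dhodh, the pyrimidine synthesis enzyme of the inner membrane, at 4.31, 4.12 and 3.96, against 5.17, 5.68 and 5.63 (fold change -1.36, adjusted p = 0.0016). The 4 subunits of complex II had fold changes of -0.34 to -0.21, none called. Of 12 genes of coenzyme Q synthesis 1 was called lower and 0 higher, again close to 6.57%, and it was Coq8a, an atypical kinase (fold change -1.37, adjusted p = 0.012). Of 20 regulators of mitochondrial gene expression 5 were called lower and 0 higher, with a median of -0.35, against the same 6.57%. Ppargc1a, the coactivator PGC-1 alpha, was at 7.58, 7.42 and 8.92 in CD4cre mice on day 7, against 9.34, 9.54 and 9.96 on day 0 (fold change -1.65, adjusted p = 0.044), and Polrmt, the mitochondrial RNA polymerase, at 7.14, 7.28 and 7.32, against 7.80, 7.86 and 7.96 (fold change -0.63, adjusted p = 0.0052). The other 3 were Tfb2m, Mterf3 and Mterf4, which act in mitochondrial transcription or ribosome assembly, at -0.58, -0.39 and -0.67. Of the subunits encoded in the mitochondrial genome, ND5 was measured, with a fold change of -0.23 (adjusted p = 0.27). Of 9 genes for uncoupling proteins and ATPase inhibitors 0 were called, with a median of -0.02.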

How the data were processed

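Colon RNA of 17 samples was hybridised to Affymetrix arrays. The authors deposited 1 table of log2 values, made with GCRMA in R 2.9.0 per the submitters' processing notes, which also name limma. Of its 45101 probe sets, 64 controls were left out and the other 45037 were tested. Gene names came from the platform annotation, in which 34945 probe sets had 1 symbol, 932 several and 9160 none. Array number limits the precision, and array dates were not used here.

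The fit covered all 17 samples in 6 groups with limma 3.58.1 in R 4.3.3 (lmFit, eBayes), with contrasts between days and genotypes and their differences. Each probe set had 1 spread shared by all groups. Over the genes above background the root mean square SD was 0.53 in CD4cre mice on day 7 and 0.20 to 0.43 in the other groups. SEs and adjusted p-values of comparisons with CD4cre day 7 may therefore be too small, and those of the other comparisons too large. P-values were adjusted by Benjamini-Hochberg over all probe sets tested, two-sided, and called at an adjusted p under 0.05. Adjusted p-values are from this limma fit or from the named alternative limma fit. The fit was tested on simulated data with independent noise of equal spread in every group. That test does not cover the wider spread of CD4cre mice on day 7. Per-complex means used the genes above background. Comparisons with day 0 of one genotype share its samples.

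The genes and lists were chosen with earlier results of these data known. Genes were named if called, if the largest of the opposite sign in their complex, as isoform pairs, as highest mean of a complex, or as genes on the pathway lists that were called. Others with low fold changes in each complex (such as Ndufs8, Ndufs1, Uqcrfs1, Atp5g1 and Atp5b) were named after their values were seen. Alternatives were a fit to the groups compared only, median centring, quantile normalization, trend and robust settings, array weights, a replicate block, a Hox covariate, leaving out samples, other probe set rules and a stricter threshold. Use of the probe set with the lowest mean was added after seeing the data.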

Additional observations from a re-analysis of the deposited data

Results flagged for a closer look

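The complex III assembly factor Uqcc3 differed between the genotypes in its day 7 effect, by -1.04 on the log2 scale (CD4cre minus WT, SE 0.13, limma adjusted p = 0.014), with all 3 CD4cre samples of day 7 below day 0 and both WT samples above it. The difference was not called in a fit to the 4 groups compared (adjusted p = 0.054) or without the samples with pancreatic transcripts (adjusted p = 0.084), and it was called in all 17 fits that each left out 1 sample.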

How the results depend on the processing

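With 5 genes called in CD4cre mice on day 7 against day 0, the count was 0 with the groups compared only, 35 with median centring, 14 with array weights, 2 without the samples with pancreatic transcripts, 19 with the Hox covariate, 9 with probe sets above background only, 10 with the median of the probe sets of a gene, 2 at an adjusted p under 0.01 and 9 with the probe set of lowest mean, and it was 5 with quantile normalization and with trend and robust settings. Over all 45037 probe sets, in either direction, 28 were called with the groups compared only, 18002 with median centring and 6208 with array weights. The Hox covariate gave 4365 and leaving out the samples with pancreatic transcripts 859, against 1575 higher and 1461 lower in the main fit. Leaving out 1 sample gave 2 genes (without CD4cre day 0 replicate 2) to 29 (without CD4cre day 7 replicate 3). Over all probe sets those fits called 1295 and 5240. Without CD4cre day 0 replicate 1 or 3 it gave 3 (1371 and 1943 of all probe sets) and without CD4cre day 7 replicate 1 it gave 9 (2178 of all probe sets). Of the 17 such fits, Ndufaf2 and Ndufaf7 were called in 17, Cox7a1 and Ndufaf1 in 15 and Ndufaf5 in 9. Between CD4cre and WT mice on day 7, where 2 were called, the count was 0 with the groups compared only, without the samples with pancreatic transcripts and at an adjusted p under 0.01, and 1 with trend and robust settings and with the Hox covariate. Leaving out 1 sample gave 0 (without WT day 7 replicate 1) to 11 (without CD4cre day 7 replicate 3). Where 0 were called, array weights gave 1 for WT day 7, 13 for WT day 2, 25 for CD4cre against WT on day 0 and 5 for the difference of the day 7 effects, and leaving out 1 sample gave 0 to 2 for that difference and 0 to 1 for WT day 2. The array weight was 16.6 for WT day 0 replicate 1, against 0.66 and 0.32 for replicates 2 and 3 of that group.

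Median fold changes moved by more than 1 SD as follows, where the SD is the root mean square SD of the complex mean within the groups compared. With array weights they were 0.095, 0.059 and 0.038 for complexes I, IV and V in WT mice on day 7, and 0.033, -0.033, 0.14 and 0.028 for complexes I, III, IV and V on day 2. With the Hox covariate they were 0.081, 0.21, 0.21 and 0.16 for complexes I, III, IV and V in WT mice on day 2, -0.34 for complex III in WT mice on day 7 and 0.11 for complex IV in CD4cre mice on day 2. Leaving out 1 sample gave -0.31 to -0.11 for complex III in WT mice on day 7 and 0.019 to 0.11 for complex IV in CD4cre mice on day 2. On day 7 in CD4cre mice none of the 17 fits that each left out 1 sample moved a median by more than 1 SD. The ranges there were -0.42 to -0.12 for complex I, -0.51 to -0.19 for complex III, -0.27 to 0.02 for complex IV and -0.32 to -0.09 for complex V. The cause of these shifts was not tested.

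Whether replicate numbers pair the samples was not settled. Deviations from the group means correlated over 0.1 in 16 of 40 same-numbered pairs, with a range of -0.45 to 0.51. Pairs of different number were not computed, so these values cannot decide it. With the replicate block, 4 genes were called in CD4cre mice on day 7 (Ndufaf5 at an adjusted p of 0.061) and 1 against WT mice, Ndufaf7.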
